A study of Sus scrofa with 12 samples.

Results

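The mitochondrial genome encodes 7 subunits of respiratory complex I, named ND1, ND2, ND3, ND4L, ND4, ND5 and ND6. These 7 genes were taken by identifier from the 35670 gene identifiers of a count table of pig heart RNA. All 7 were found and passed the filter on low counts that left 13476 genes for testing. Their identifiers are ENSSSCG00000018065 (ND1), ENSSSCG00000018069 (ND2), ENSSSCG00000018084 (ND3), ENSSSCG00000018086 (ND4L), ENSSSCG00000018087 (ND4), ENSSSCG00000018091 (ND5) and ENSSSCG00000018092 (ND6).

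Complex I oxidises NADH and passes its electrons to ubiquinone, and the energy released pumps protons across the inner mitochondrial membrane. The mitochondrially encoded subunits form the core of its membrane arm, while the nucleus encodes the redox-active arm and the accessory subunits. The heart depends on this enzyme because cardiac muscle makes most of its ATP by oxidative phosphorylation. Mitochondrial DNA is transcribed into long precursors that are cut into messages, mostly at transfer RNAs that lie between genes. ND6 is encoded on the opposite strand from the other 6 subunits.

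RNA was sequenced from the left ventricle of 12 wildtype female Ossabaw swine, an obesity-prone strain, with 4 hearts in each of 3 groups. The chow control animals had no aortic banding and no vector. The HF saline animals were fed high fat from the age of 2 months, underwent aortic banding and were treated at once with saline. The HF KBD animals had the same diet and banding and were treated at once with AAV9sc.KBD at 8e12 vector genomes per kg through a peripheral vein. The hearts of both HF groups were collected 6 months after the treatment. The sample annotation used here gives no such time or age for the chow controls, so whether they match in age is not known. KBD is the kinase-binding part of the scaffold protein AKAP6 (mAKAP), and the vector's name in the table carries cTnT, the abbreviation of cardiac troponin T, whose promoter restricts expression to heart muscle cells. Diet and banding were given together, so their effects cannot be told apart, and no group received the vector without them. Within a group the replicate numbers only name the animals.

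The libraries held 7721622 (chow control replicate 1) to 12637950 (chow control replicate 3) counts assigned to genes, and 17515 to 18156 genes had a count. The vector's own transcript had 242, 400, 269 and 712 counts in the 4 HF KBD libraries and 0 in the other 8. Cardiomyocyte markers were abundant in all 12 libraries: the 6 that could be matched, such as TNNT2 and MYL2, summed to between 30425 and 41460 CPM (counts per 1e+06 counts of the library, after trimmed-mean scaling). In whole tissue, fewer cells of a type and less RNA per cell cannot be told apart.

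The 7 genes lie on the mitochondrial chromosome (MT) of the Sscrofa11.1 assembly, at these RefSeq positions. ND1 spans MT:3922-4876 (955 bases), and ND2 follows at MT:5087-6128 (1042 bases). ND3 lies at MT:10653-10998 (346 bases), beyond the genes for the cytochrome oxidase and ATP synthase subunits. ND4L at MT:11069-11365 (297 bases) shares its last 7 bases with the start of ND4 at MT:11359-12736 (1378 bases). ND5 at MT:12935-14755 (1821 bases) shares 17 bases with ND6 at MT:14739-15266 (528 bases). Each is a single stretch of protein-coding sequence, as mitochondrial genes in mammals have no introns. The library kit is not described as strand-marking, so reads from ND6 and reads from the opposite strand at the same place cannot be told apart. Reads that fall in the shared bases of ND4L and ND4 could have been assigned to either gene. The expected counts of both genes were whole numbers in every library, and how such reads were assigned was not tested.

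Together the 7 genes took a small and similar share of the library in every group. In the chow controls they held 1.43%, 1.87%, 1.68% and 1.68% of the counts in replicates 1 to 4, a mean of 1.66% ± 0.180 (SD, n = 4). The HF saline hearts gave 1.82%, 1.88%, 1.70% and 1.89%, a mean of 1.82% ± 0.0877 (SD, n = 4). The HF KBD hearts gave 1.93%, 1.65%, 2.01% and 1.73%, a mean of 1.83% ± 0.170 (SD, n = 4). The 3 ranges overlap, and chow control replicate 1, the library with the fewest counts, was the lowest of all 12. Within the 37 consecutively numbered identifiers that hold every named mitochondrially encoded protein gene, of which 14 had a count, the 7 genes took a mean of 13.97% of the counts in chow control, 14.03% in HF saline and 14.04% in HF KBD.

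Within the group of 7, the counts were very unequal. ND5, which with ND4 and ND2 belongs to the antiporter-like proton-pumping subunits, took 40.3% of their counts on average over the 12 animals (range 39.4% to 42.04%). ND4 took 35.2% (32.6% to 37.1%) and ND2 13.3% (11.5% to 15.2%). ND1, the subunit that helps form the ubiquinone-binding chamber, took 5.75% (5.32% to 6.01%), and ND3 took 2.85% to 4.30%. ND6 took 1.76% (1.58% to 1.94%), and ND4L, the smallest subunit, only 0.0228% (0.0174% to 0.0283%). So 3 genes carried most of the reads, and few counts were assigned to ND4L beside its overlapping neighbour.

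Divided by gene length, ND4 and ND5 changed places, as did ND3 and ND1. The mean level was 4539 CPM per 1000 bases for ND4, 3933 for ND5, 2276 for ND2, 1861 for ND3, 1072 for ND1, 594 for ND6 and 13.7 for ND4L. ND4 stood above ND5 in 12 of 12 animals, by 1.02 to 1.24 times, although over animals their ranges overlap (3708 to 5270 and 3146 to 4493). ND5 exceeded ND2 by 1.54 to 2.07 times in every animal. ND2 exceeded ND3 in 11 of 12 animals, with a ratio that ran from 0.885 in chow control replicate 2 to 1.77. Over animals their ranges overlap (1695 to 2709 and 1315 to 2386). ND3 was above ND1 in 12 of 12 animals (1.37 to 2.23 times), and ND1 above ND6 in 12 of 12 (1.52 to 2.01 times). The libraries came from poly(A)-selected RNA, and the part of RNA capture and of short gene length in this order was not tested.

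The step down to ND4L was of another size. ND6 was 43.2 times higher per length than ND4L, and ND4, its partner across the shared bases, was 330.2 times higher (265.6 to 429.3 times over the 12 animals). ND4L had only 25 to 57 counts per library, so counting alone gives an error of 13.2% to 20% on each of its values. ATP8, the other short gene that overlaps a neighbour (43 of its 204 bases lie in ATP6), is listed at 0 in all 12 libraries, where a count of 0 allows up to 0.237 to 0.389 CPM (3 counts, per library; counting error only). How reads in overlapping genes were divided was not tested, so these low counts need not be the levels of the transcripts.

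**Figure D1:**
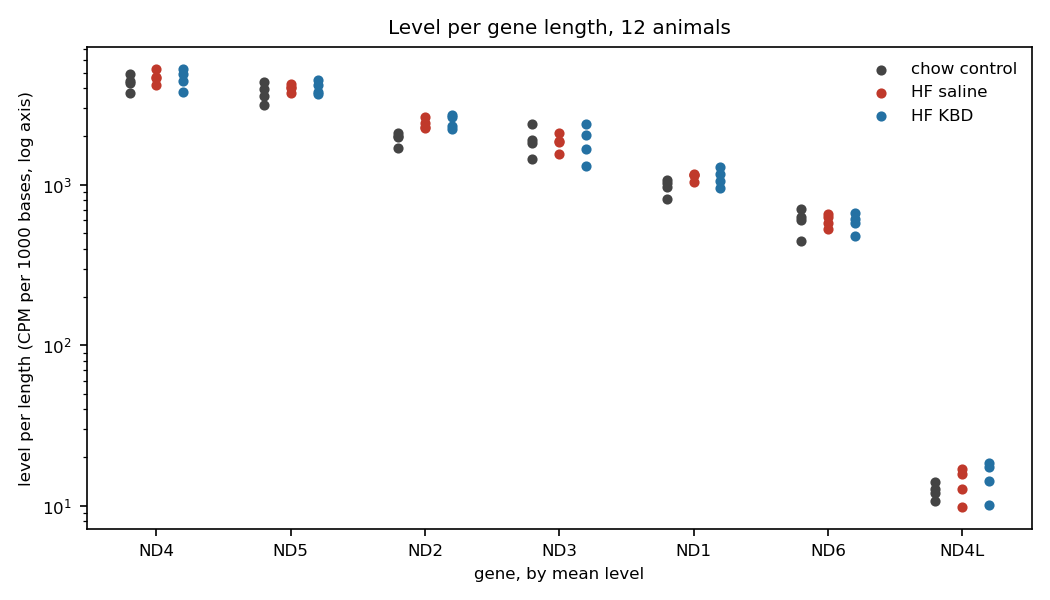
Level of each of the 7 genes per 1000 bases of gene length, in CPM on a log axis, with the genes ordered by mean level; each point is 1 animal, coloured by group, n = 4 per group. ND4 to ND6 lie between 445 and 5270, and ND4L lies between 9.79 and 18.3.

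All 7 complex I genes were below the tested genes of the other mitochondrially encoded enzymes on this scale. COX3 and COX1, subunits of cytochrome oxidase, had means of 26432 and 25421 CPM per 1000 bases, or 5.82 and 5.60 times that of ND4. ATP6 of the ATP synthase was at 12535, CYTB of complex III at 7855 and COX2 at 7280. COX3 exceeded ND4 by 5.61 to 6.08 times in each of the 12 animals.

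HF saline against chow control asks what diet plus banding did to the heart. ND2 was the member with the largest difference. In CPM, the chow controls had 1766, 2196, 2057 and 2088 (replicates 1 to 4), a mean of 2026 ± 184 (SD, n = 4). The HF saline hearts had 2382, 2748, 2348 and 2540, a mean of 2504 ± 182 (SD, n = 4). Every HF saline heart was above every chow control. The log2 fold change of ND2 was 0.31 (SE 0.0939, 95% interval 0.10 to 0.51), a 23.6% higher level, with an unadjusted p of 0.00588 and an adjusted p of 0.203 (edgeR quasi-likelihood test, Benjamini-Hochberg over all 13476 genes). It ranked 391 by p among all genes and did not pass the threshold of 0.05.

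**Figure D2:**
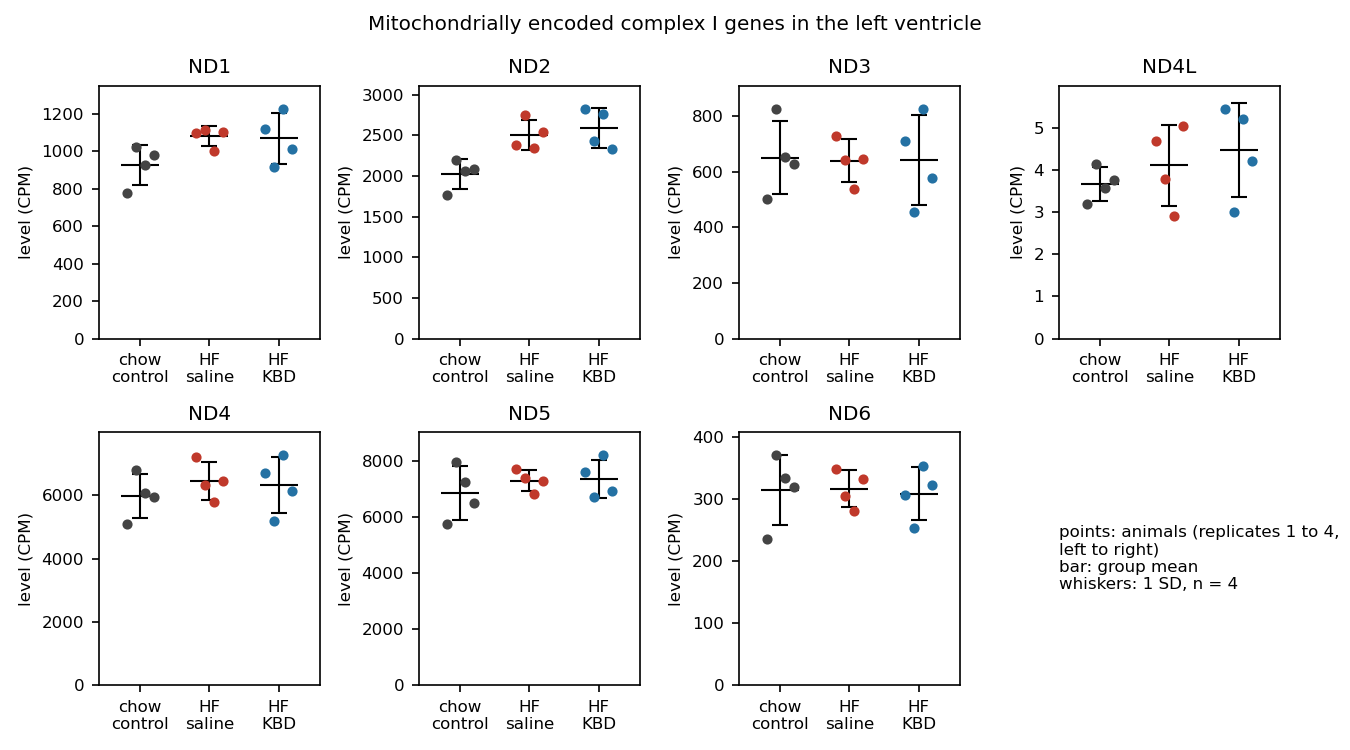
Level of each of the 7 genes in CPM (vertical axes start at 0) in chow control, HF saline and HF KBD hearts; points are the animals, bars the group means and whiskers 1 SD, n = 4. ND2 is the gene whose chow control points (1766 to 2196) lie below all points of both HF groups (2328 to 2823).

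ND1 was next. Its chow control levels were 774, 1020, 926 and 978 CPM, with a mean of 924 ± 107 (SD, n = 4). The HF saline levels were 1098, 1114, 999 and 1103 CPM, with a mean of 1078 ± 53.4 (SD, n = 4). The groups overlap only because HF saline replicate 3 lay below chow control replicate 2. The log2 fold change was 0.22 (SE 0.104, 95% interval -0.0010 to 0.45, edgeR adjusted p = 0.426), not past the threshold, and it was 0.15 without chow control replicate 1.

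The antiporter-like pair ND4 and ND5 showed smaller values. ND4 had 5109, 6788, 6082 and 5948 CPM in the chow controls against 7227, 6336, 5794 and 6468 in HF saline. ND5 had 5729, 7958, 7234 and 6494 CPM in the chow controls against 7685, 7385, 6790 and 7284 in HF saline. The groups overlap for both genes. Their log2 fold changes were 0.11 (95% interval -0.14 to 0.36) and 0.09 (-0.14 to 0.31), with edgeR adjusted p of 0.770 and 0.799. Without chow control replicate 1 they were 0.0423 and 0.0121, and without chow control replicate 2 they were 0.18 and 0.17.

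ND3, which sits at the hinge between the membrane and redox arms, and ND6 had fold changes near 0. ND3 had 501, 824, 653 and 626 CPM in the chow controls against 727, 644, 538 and 647 in HF saline. ND6 had 235.1, 370.4, 334 and 319 CPM in the chow controls against 348, 306, 282 and 332 in HF saline. In each case all 4 HF saline values lay inside the chow control range. The log2 fold changes were -0.03 (95% interval -0.42 to 0.36) for ND3 and 0.01 (-0.27 to 0.30) for ND6, with edgeR adjusted p of 0.974 and 0.986.

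ND4L had 3.19, 4.15, 3.58 and 3.77 CPM in the chow controls against 4.69, 3.79, 2.91 and 5.04 in HF saline. The HF saline values span those of the controls. Its log2 fold change of 0.16 has a 95% interval from -0.35 to 0.66, the widest of the 7, with an edgeR adjusted p of 0.850.

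In sum over this comparison, 0 of the 7 genes were called, where 0.26% of all tested genes were called (0.171% higher and 0.089% lower). At an unadjusted p under 0.05 it was 1 of 7 (ND2), against 11.8% of all genes, and 1 of 7 had groups that do not overlap (ND2 again), against 6.67% of all genes. The fold change was above 0 for 6 of 7, as it was for 49.5% of all genes, and the median was 0.11 beside -0.0024 for all genes. These shares rest on 7 genes transcribed from 1 short genome, which are not independent of each other.

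No marker of any cell type was called in this comparison, where 0.089% of all genes were called lower. Of the 6 cardiomyocyte markers tested, 4 had a fold change above 0 in HF saline and 2 in HF KBD against chow control. ACTC1 had the lowest, -0.71 (edgeR adjusted p = 0.234) and -0.67 (0.257). The 5 fibroblast markers summed to 731 to 1076 CPM in the chow controls and 646 to 727 in HF saline. At an unadjusted p under 0.05, 4 of the 5 were lower, against 11.8% of all genes in either direction, while PDGFRA had a log2 fold change of 0.13. The 3 smooth muscle and pericyte markers, 2 of them lower at that unadjusted p, summed to 209 to 305 CPM in the chow controls and 168 to 205 in HF saline. In HF KBD these sums were 746 to 1075 and 224 to 342 CPM, and neither range overlaps that of HF saline. In HF KBD against HF saline, 3 of the 5 fibroblast markers were higher at an unadjusted p under 0.05 (edgeR). So were 2 of the 3 smooth muscle and pericyte markers, against 4.15% of all genes in either direction, and 0 of either list were called. The endothelial (315 to 393 and 312 to 404 CPM), macrophage (82.3 to 103 and 51.5 to 126 CPM) and erythroid (27.2 to 268 and 68.3 to 197 CPM) sums of chow control and HF saline overlapped. At an unadjusted p under 0.05 (edgeR), 1 of the 2 endothelial markers tested was higher, and 0 of the macrophage and erythroid markers passed. The 3 adipocyte markers were below the filter on low counts. The part of the cell make-up in the values of the 7 genes was not tested.

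The HF KBD hearts were set against the same 4 chow controls, so the values that follow share those animals with the comparison above. ND2 had 2823, 2428, 2763 and 2328 CPM in HF KBD (mean 2585 ± 244, SD, n = 4), and again every value was above every chow control. Its log2 fold change was 0.35 (SE 0.0939, 95% interval 0.15 to 0.55), a 27.6% higher level, with an unadjusted p of 0.00225 and an edgeR adjusted p of 0.188. It ranked 159 by p among all genes and was not called. DESeq2's Wald test gave a fold change of 0.35 too, and ND2 passed it, at an adjusted p of 0.0303 without the filter on low counts (23222 genes, 184 called) and 0.0247 on the genes kept by the filter (199 called), where edgeR called 7.

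ND1 had 1118, 914, 1225 and 1012 CPM in HF KBD (mean 1067 ± 134, SD, n = 4), and overlapped the controls. Its log2 fold change was 0.21 (95% interval -0.0162 to 0.43, edgeR adjusted p = 0.426). ND4L had 5.45, 3.00, 5.205 and 4.21 CPM, for a log2 fold change of 0.28 (95% interval -0.23 to 0.78, edgeR adjusted p = 0.655). HF KBD replicate 2 lay under every chow control for ND4L, and the other 3 lay above all of them.

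ND4 had 6712, 5197, 7263 and 6129 CPM in HF KBD, a log2 fold change of 0.08 (95% interval -0.17 to 0.33). ND5 had 7599, 6709, 8181 and 6898 CPM, a log2 fold change of 0.10 (-0.12 to 0.32). The edgeR adjusted p were 0.814 and 0.727, and both genes overlapped the controls. With 1 animal left out, ND4 ran from 0.0086 (without HF KBD replicate 3) to 0.17 (without HF KBD replicate 2), and ND5 from 0.0245 to 0.18 (without chow control replicates 1 and 2 in turn). ND3 had 710.4, 455, 826 and 576 CPM in HF KBD, reaching below and above the chow control range. ND6 had 307, 253, 354 and 323 CPM, all inside the range of the controls. Their log2 fold changes were -0.02 (-0.41 to 0.37) and -0.03 (-0.31 to 0.26), with edgeR adjusted p of 0.978 and 0.957.

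Of the 7 genes, 0 were called in HF KBD against chow control, where 0.0519% of all tested genes were called (0.0297% higher and 0.0223% lower). At an unadjusted p under 0.05 it was 1 of 7 (ND2), against 12.5% of all genes, and for 1 of 7 (ND2) the groups did not overlap, against 7.45% of all genes. The fold change was above 0 for 5 of 7 and for 49.7% of all genes, and the median was 0.10 beside -0.0015 for all genes.

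The comparison of HF KBD with HF saline asks what the vector added under the same diet and banding. None of the 7 genes was called, and 0% of all tested genes were called in either direction (0% higher, 0% lower; 4.15% of all genes had an unadjusted p under 0.05, and 2.76% had groups that do not overlap). At an unadjusted p under 0.05 and by groups that do not overlap, 0 of the 7 counted, and DESeq2 called 0 genes as well. The log2 fold changes ran from -0.04 (ND6) to 0.12 (ND4L), with a median of 0.0063 beside -0.0041 for all genes. For ND2 the value was 0.05 with a 95% interval from -0.16 to 0.25, and for ND1 it was -0.02 with an interval from -0.24 to 0.21. The intervals were -0.28 to 0.22 for ND4, -0.21 to 0.24 for ND5 and -0.32 to 0.25 for ND6. Those of ND3 (-0.38 to 0.40) and ND4L (-0.38 to 0.62) were wider. With such intervals, a p that misses the threshold does not show that these groups were alike.

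**Figure D3:**
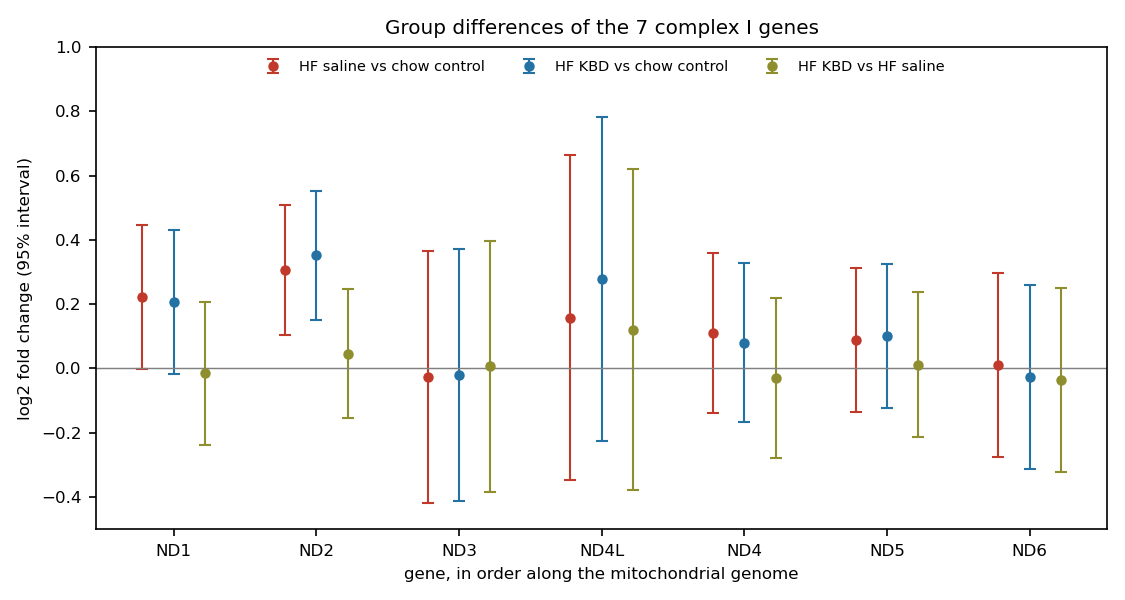
Log2 fold change of each of the 7 genes in order along the mitochondrial genome, with 95% intervals from the edgeR fit over 12 animals, for the 3 group comparisons in 3 colours. The intervals of ND2 against chow control (0.10 to 0.51 and 0.15 to 0.55) lie above 0, and those of the other 6 genes and of all 7 in HF KBD against HF saline include 0.

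ND2 also had a larger mean share of the counts of the 7 genes in both HF groups than in the controls, a ratio within each library that does not depend on the scaling between libraries. It took 12.5%, 11.5%, 11.9% and 12.7% in the chow controls, a mean of 12.1% ± 0.565 (SD, n = 4). It took 12.2%, 14.8%, 14.01% and 13.8% in HF saline, a mean of 13.7% ± 1.08 (SD, n = 4). It took 14.6%, 15.2%, 13.4% and 13.5% in HF KBD, a mean of 14.2% ± 0.891 (SD, n = 4). HF saline replicate 1 lay inside the chow control range, while the other 7 HF hearts lay above it. Such a share moves with the other 6 genes as well as with ND2, and no test was made of it, since ND2 was singled out after its values were seen.

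**Figure D4:**
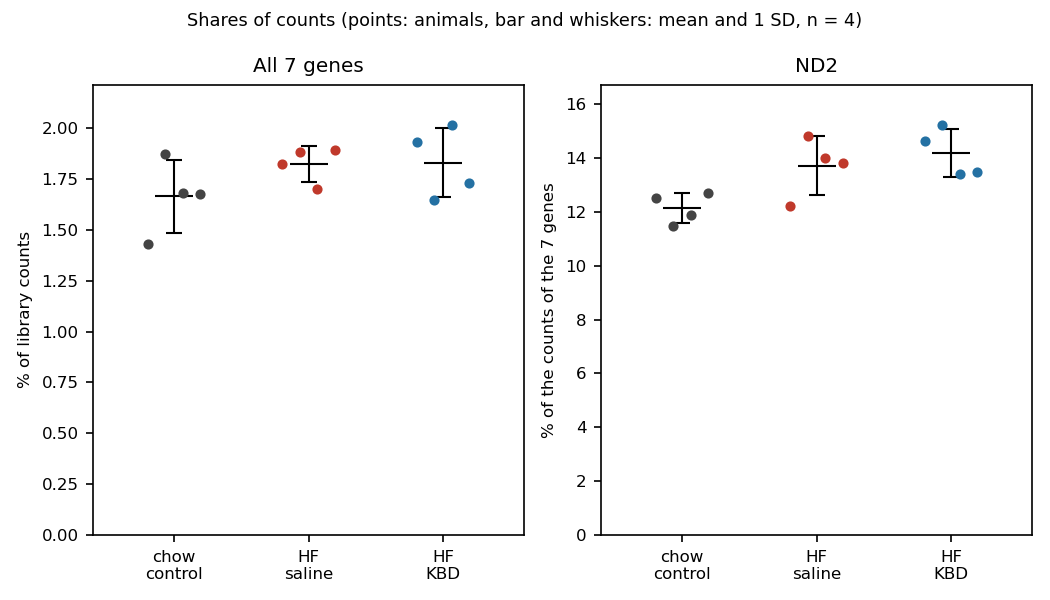
Left, the 7 genes together as a percentage of the counts of each library; right, ND2 as a percentage of the counts of the 7 genes; points are animals, bars and whiskers the mean and 1 SD (n = 4), and the axes start at 0. The groups overlap on the left, and on the right 7 of 8 HF hearts are above the chow control range of 11.5% to 12.7%.

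The shares of the other genes overlapped between the groups. ND5 took 39.5% to 41.8% in chow control, 39.5% to 40.5% in HF saline and 39.4% to 42.04% in HF KBD, and ND4 took 35.2% to 36.2%, 34.2% to 37.1% and 32.6% to 35.5%. As mean ± SD (n = 4 each), ND3 took 3.86% ± 0.317, 3.49% ± 0.213 and 3.47% ± 0.495, and ND6 took 1.87% ± 0.134, 1.73% ± 0.0786 and 1.69% ± 0.133. ND1 took 5.53% ± 0.286, 5.90% ± 0.178 and 5.83% ± 0.0895.

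Between animals the 7 genes varied together. Over the 12 animals, Pearson's r of log2 CPM between the 21 pairs had a median of 0.769 and ran from 0.344 (ND2 with ND6) to 0.930 (ND3 with ND4). The 6 pairs with ND2 had a median of 0.578, and the 15 pairs without it 0.838. With each group's mean removed, the median over all pairs was 0.855 (0.566 to 0.986). These values share libraries and scaling and are given as a description. Inside the groups, chow control replicate 2 was the highest of its group for all 7 genes and replicate 1 the lowest for all 7, HF saline replicate 3 was the lowest of its group for all 7, and HF KBD replicate 2 was the lowest of its group for 6. Chow control replicate 1 was the lowest of all 12 animals for 5 of the 7 genes.

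Among all other tested genes, those most like the mean log2 CPM of the 7 over the 12 animals were ATP6 (r = 0.962), COX2 (0.928), COX3 (0.923), COX1 (0.910) and NRDE2 (0.889), so 4 of these 5 are also mitochondrially encoded. The single most similar gene was COX2 for ND1 (r = 0.948), COX3 for ND3 (0.969) and ATP6 for ND4 (0.969). For ND2 it was GPATCH2 (r = 0.953), for ND5 G6PC3 (0.936), for ND6 PSMC1 (0.956) and for ND4L NDUFB1 (0.876), all nuclear genes. The largest of 13476 correlations over 12 points is high by selection, so these names are descriptions only.

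Of 8 other mitochondrially encoded genes listed, 6 were matched and 5 tested, with 0 called in any comparison. Over all genes, 0.26% (HF saline) and 0.0519% (HF KBD) were called against chow control, and 0% between the HF groups. In these 2 comparisons with chow control, 49.5% and 49.7% of all genes had a fold change above 0. Against chow control the fold change was above 0 for 5 of 5 in HF saline (median 0.08, from 0.05 for COX3 to 0.21 for COX2) and for 5 of 5 in HF KBD (median 0.08, from 0.03 to 0.16). In HF KBD against HF saline it was above 0 for 1 of 5 (median -0.02), beside 4 of the 7 complex I genes. The ND2 values against chow control of 0.31 and 0.35 lie above these ranges. So do those of ND1 (0.22 and 0.21) and, in HF KBD, ND4L (0.28). The values of ND3 (-0.03 and -0.02) and ND6 (0.01 and -0.03) lie below them. These differences were not tested.

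Of 37 listed nuclear subunits of complex I, 32 were matched and tested. In HF saline against chow control 0 were called, where 0.26% of all genes were. Of the 32, 15 had a fold change above 0 (49.5% of all genes), and the median was -0.01. In HF KBD against chow control 0 were called higher and 1 was called lower, against 0.0297% and 0.0223% of all genes. There 6 of 32 had a fold change above 0 (49.7% of all genes), and the median was -0.10. In HF KBD against HF saline 0 were called (0% of all genes), 4 of 32 were above 0 (48.9% of all genes) and the median was -0.08. HF KBD replicate 2 was the lowest HF KBD heart for 32 of 32 of these genes and the lowest of all 12 hearts for 30. Their summed level was 6301 CPM there, against 7787 to 7950 in the other 3 HF KBD hearts, 7905 to 8188 in the chow controls and 7639 to 8443 in HF saline. Without that heart the medians were -0.0205 against chow control (13 of 32 above 0) and -0.0032 against HF saline (15 of 32 above 0). Without HF saline replicate 1, the highest, the median of HF saline against chow control was -0.0568 (6 of 32 above 0) and that of HF KBD against HF saline -0.0221 (8 of 32 above 0). The difference between the nuclear and the mitochondrial genes was not tested.

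The called gene was NDUFS6, an accessory subunit of the redox arm. It ranged from 193 to 198 CPM in the chow controls (mean 196 ± 1.98), from 169 to 181 in HF saline (175 ± 5.05) and from 136 to 157 in HF KBD (146 ± 9.78; SD, n = 4 each). No 2 of the 3 groups overlap, which rests on the same values as the call. Over all genes, groups did not overlap for 6.67% (HF saline against chow control), 7.45% (HF KBD against chow control) and 2.76% (HF KBD against HF saline). NDUFS6 fell by 0.43 on the log2 scale in HF KBD against chow control (SE 0.0653, edgeR adjusted p = 0.0311). In HF saline against chow control its log2 fold change was -0.16 (adjusted p = 0.357), and in HF KBD against HF saline -0.27 (adjusted p = 1.00). The call against chow control was lost in 10 of the 12 fits that left out 1 animal, in which the fold change ran from -0.46 to -0.39 and the edgeR adjusted p from 0.0276 to 0.134. NDUFC2, an accessory subunit of the membrane arm, had 234 ± 8.08 CPM in chow control, 212 ± 16.8 in HF saline and 177 ± 15.98 in HF KBD (SD, n = 4), with a log2 fold change of -0.41 in HF KBD against chow control that did not pass (edgeR adjusted p = 0.0833).

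**Figure D5:**
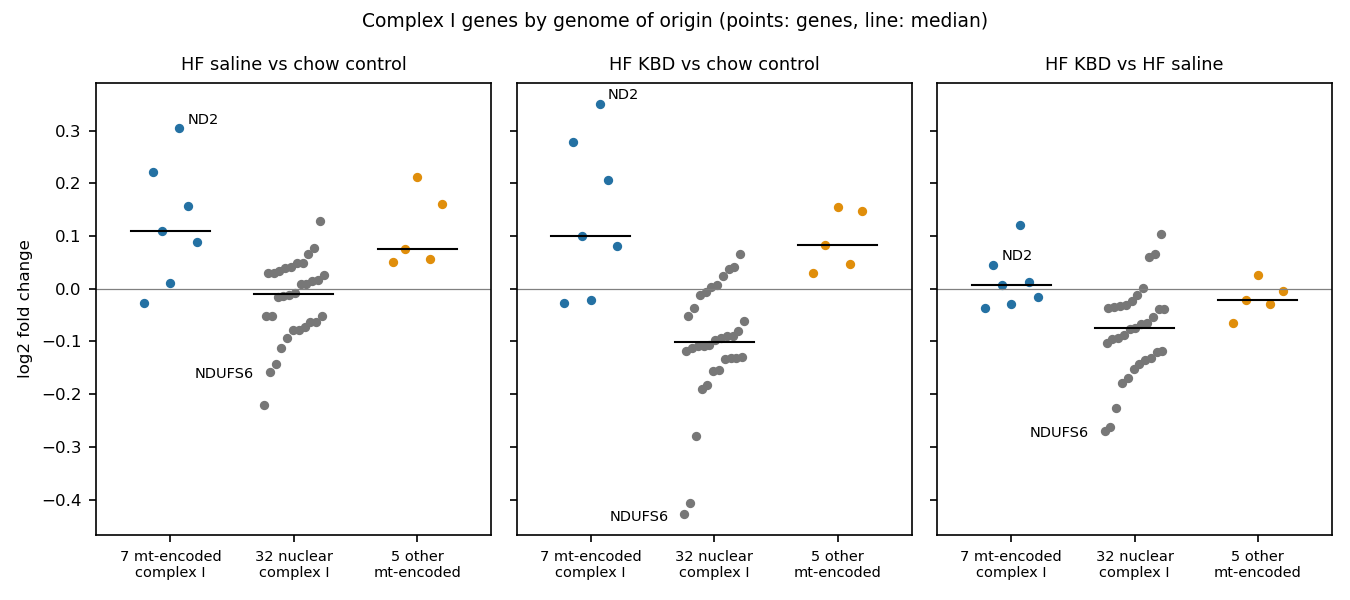
Log2 fold change (vertical axis) of the 7 mitochondrially encoded complex I genes, 32 nuclear complex I genes and 5 other mitochondrially encoded genes in the 3 comparisons; each point is 1 gene, spread sideways for legibility, and the line is the median. Against chow control the medians of the 7 genes are 0.11 and 0.10, and those of the nuclear genes are -0.01 and -0.10 (-0.0205 without HF KBD replicate 2); in HF KBD against chow control NDUFS6 is the lowest nuclear point, at -0.43.

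Genes that build complex I or express the mitochondrial genome gave no calls. Over all genes, 0.26% were called in HF saline and 0.0519% in HF KBD against chow control, and 0% in HF KBD against HF saline. Of 14 listed assembly factors, 13 were tested and 0 called in each of the 3 comparisons, with medians of 0.0066 in HF saline and -0.10 in HF KBD against chow control. Of 17 genes for mitochondrial transcription and RNA handling, all were tested and 0 called. Here 14 of 17 had a fold change above 0 against chow control in each HF group, with medians of 0.09 and 0.10. Over all genes, 49.5% and 49.7% were above 0. The RNA polymerase of mitochondria, POLRMT, had log2 fold changes of 0.15 and 0.09 (edgeR adjusted p of 0.552 and 0.729). TFAM, which packages mitochondrial DNA and starts its transcription, had 0.18 in both (edgeR adjusted p of 0.767 and 0.713). Below 0 against chow control were SLIRP (-0.13), TWNK (-0.11) and MTERF3 (-0.01) in HF saline. In HF KBD they were SLIRP (-0.08), MTPAP (-0.04) and TWNK (-0.02). MTERF1, a mitochondrial transcription termination factor, ranged from 10.7 to 13.8 CPM in chow control, from 15.6 to 18.9 in HF saline and from 12.9 to 18.3 in HF KBD, with log2 fold changes of 0.47 and 0.33 (edgeR adjusted p of 0.199 and 0.354).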

How the data were processed

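The authors deposited 1 table of expected counts per gene, made with STAR 2.7.10a and RSEM 1.3.1 on Sscrofa11.1 per the submitters' processing notes. Per the labels' protocols, libraries came from poly(A)-selected RNA with a NEBNext Ultra II kit, under 1 batch label. Expected counts were rounded (4.54% of values were not whole, none for the 7 genes), and 1 vector row was left out. Genes were kept by edgeR 4.0.16 filterByExpr (minimum count 10, total 15), scaled by trimmed means, and tested with the robust quasi-likelihood test over 12 animals and 3 group means, with Benjamini-Hochberg adjustment over 13476 genes and a threshold of 0.05. DESeq2 1.42.0 (also, added after the data were seen, on the filtered genes), limma 3.58.1, other scalings and filters, 2-group fits and 12 fits without 1 animal were alternatives, and the scripts were tested on simulated data. Symbols came from a table of gene identifiers (11346 tested genes matched) and positions from RefSeq, whose gene lengths replaced the planned protein-based lengths. No nucleotide or protein sequences were used here. No pair of libraries agreed within sampling noise. The text names all 7 genes, the 5 genes most like their mean, the most similar gene for each, and the called list members. NDUFC2, POLRMT, TFAM, MTERF1, SLIRP, TWNK, MTERF3, MTPAP, ACTC1 and PDGFRA were named after their values were seen. The members and lists were chosen with earlier results of these data known. The labels give each sample as a separate heart.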

Additional observations from a re-analysis of the deposited data

Results flagged for a closer look

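In groups of 4, a sample was marked where its distance to the nearest other sample took up nearly all of the group's range; 48 group values were examined (16 measures in 3 groups), 3 were marked, and chance marks about 1 in 20. HF saline replicate 3 had 999 CPM of ND1, against 1098 to 1114 in the other 3 hearts. ND1 took 5.64% of the counts of the 7 genes in HF saline replicate 1, against 5.96% to 6.01% in the other 3. ND6 took 1.67% of the counts of the 7 genes in chow control replicate 1, the library with the fewest counts, against 1.93% to 1.94% in the other 3 controls.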

How the results depend on the processing

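Of 441 alternative fold changes of the 7 genes, 413 kept their direction and their side of the threshold, 0 lost a call, 2 gained one and 26 changed sign. The count of members called in HF KBD against chow control was 1 with DESeq2, with or without the filter on low counts, and 0 in the other alternatives; the other 2 comparisons had 0 in all. ND6 in HF saline against chow control was -0.0105 with limma-voom. Without 1 animal, these log2 fold changes crossed 0. In HF saline against chow control, ND3 ran from -0.13 to 0.11 and ND6 from -0.10 to 0.10. In HF KBD against HF saline, ND1 ran from -0.0872 to 0.0529, ND3 from -0.14 to 0.14, ND4L from -0.0112 to 0.27, ND4 from -0.10 to 0.0545, ND5 from -0.0429 to 0.0540 and ND6 from -0.11 to 0.0487. In HF KBD against chow control, ND3 ran from -0.16 to 0.11 and ND6 from -0.14 to 0.0623. ND4 and ND5 kept their sign against chow control but ran from 0.0423 to 0.18 and 0.0121 to 0.17 in HF saline, and from 0.0086 to 0.17 and 0.0245 to 0.18 in HF KBD. ND1 ran from 0.15 to 0.27 and from 0.13 to 0.28, and ND4L from 0.0444 to 0.29 and from 0.17 to 0.43. ND2 ran from 0.25 to 0.35 in HF saline and from 0.29 to 0.40 in HF KBD against chow control. Nuclear complex I genes called lower in HF KBD against chow control, an alternative added after the data were seen, numbered 2 at an adjusted p under 0.10, 2 with DESeq2 with or without the filter, 0 with only the 2 groups, and 0 to 1 without 1 animal. The median of the nuclear genes ran from -0.0568 to 0.0269 in HF saline and from -0.13 to -0.0205 in HF KBD against chow control without 1 animal. With counts outside the mitochondrial identifiers as denominator, the 7 genes came to 1.89%, 2.10% and 2.11% in chow control, HF saline and HF KBD. By counts not divided by length, 3 of the 7 genes kept their rank. Over all genes, edgeR called 35 in HF saline against chow control (3 to 72 without 1 animal, 6 with only the 2 groups, 52 without a filter, 74 at 0.10, 249 with DESeq2 and 262 with DESeq2 after the filter) and 7 in HF KBD against chow control (0 to 13, 5, 35, 53, 184 and 199). The causes were not tested. No paired analysis was possible because the replicate numbers only name the animals. ND4L had 25 to 57 counts per library, and its spread between animals (CV 10.8% in chow control, 23.3% in HF saline and 24.9% in HF KBD) stands beside a counting error of 13.2% to 20%.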
